A study of Homo sapiens with 8 samples.

Results

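Genes of fatty acid oxidation and ketone body metabolism were followed in hypoxic Huh-1 cells with and without depletion of LSD1, the histone lysine demethylase encoded by KDM1A. The set comprised 33 genes, taken by symbol from the deposited table of non-normalized signals, either under the current symbol or under an older one. They occupied 34 of its 34694 rows, because HSD17B10 was present both under its current name and as HADH2. Huh-1 is an established human hepatocellular carcinoma line. All cells received an siRNA by reverse transfection, either a control siRNA (siControl) or one against LSD1 (siLSD1), and 48 h later all were moved to 1% O2 for 24 h. Each group had 2 biological replicates, each hybridised to 2 Illumina bead arrays as technical replicates, so that 8 arrays stood for 4 biological samples. Hypoxia was common to both groups, and an untransfected or normoxic culture was not analysed here. Nothing beyond the word biological states whether the replicates came from separate cultures, and the siRNA sequences and any pooling are not given in the sources used here.

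Fatty acids enter β-oxidation after they have been joined to coenzyme A. Carnitine carries the long-chain acyl groups into mitochondria, where repeated rounds of dehydrogenation, hydration, a further dehydrogenation and thiolysis shorten the chain to acetyl-CoA, while peroxisomes shorten very long and branched chains. In liver, surplus acetyl-CoA is turned into ketone bodies for export, and the nuclear receptors PPARα and ERRα with the PGC-1 coactivators are known regulators of these genes.

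The stretches of genome before the transcription starts of the genes at either end of the set are shown first: HADH, which had the largest negative difference in siLSD1, and ACSL4, which had the largest positive one. The third stretch lies between HADHA and HADHB, the genes of the trifunctional protein subunits, which start head to head, 307 bases apart. It is the part that falls within 250 bases of both starts. Sequences are from RefSeq on GRCh38.p14 and are written 5′ to 3′ on the strand of the gene, for the third on the strand of HADHB. Capitals mark CCAAT boxes (CCAAT) and GC boxes (GGGCGG) on either strand.
HADH, chr4:107989639-107989888, plus strand: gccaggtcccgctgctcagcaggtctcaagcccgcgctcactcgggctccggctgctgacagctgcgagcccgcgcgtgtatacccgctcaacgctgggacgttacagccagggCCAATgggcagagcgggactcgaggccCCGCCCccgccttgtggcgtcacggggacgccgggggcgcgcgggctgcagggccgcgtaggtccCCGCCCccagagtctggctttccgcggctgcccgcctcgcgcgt
ACSL4, chrX:109733258-109733507, minus strand: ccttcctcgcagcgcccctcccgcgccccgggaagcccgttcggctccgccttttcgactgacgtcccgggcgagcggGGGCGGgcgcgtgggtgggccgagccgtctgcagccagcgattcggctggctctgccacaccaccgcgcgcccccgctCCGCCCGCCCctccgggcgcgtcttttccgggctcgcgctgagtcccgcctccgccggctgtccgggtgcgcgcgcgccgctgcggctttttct
HADHA and HADHB, chr2:26244689-26244882, plus strand: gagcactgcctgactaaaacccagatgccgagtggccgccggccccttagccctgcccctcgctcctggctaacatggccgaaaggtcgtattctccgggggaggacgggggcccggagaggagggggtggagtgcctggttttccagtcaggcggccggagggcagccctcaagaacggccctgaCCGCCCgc
The HADH window held 1 CCAAT box and 2 GC boxes, the ACSL4 window 3 GC boxes and no CCAAT box, and the shared stretch 1 GC box. Of the 33 genes, 28 matched an entry of the RefSeq promoter table, with 41 windows of 250 bases; ACAA1, ACOX2, DECR1, EHHADH and ETFDH did not. A GC box was found in 26 of the 41 windows, against 42.6% of all 35116 windows of this length, and a CCAAT box in 10, against 32%. The core of the hypoxia response element, ACGTG, was found in 7 windows, against 18.5% of all windows. The ERR element TNAAGGTCA and the direct repeat AGGTCANAGGTCA bound by PPARα with its partner RXR were found in 0 of the 41, against 0.854% and 0.0171% of all windows. With shares that low for the ERR element and the direct repeat, 0 of 41 windows cannot show whether the members differ from other genes. All these counts are matches of letters on both strands, and a gene with several annotated starts counts with each of them.

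Between 12447 and 13290 rows per array had a detection p-value under 0.01, and the median signal was 168 to 180 per array. KDM1A, the siRNA target, gave signals of 3920, 3642, 5035 and 3998 on the siControl arrays and 1576, 1568, 1343 and 1327 on the siLSD1 arrays. Its log2 difference was -1.48 ± 0.18, with no overlap between the groups (limma adjusted p = 0.223). Errors after ± are the standard error of the difference in limma's fit of 2 samples against 2, unless named SD. All 10 hepatocyte markers examined, among them ALB, APOA1, TTR and HNF4A, were brighter than every ERCC control row on at least 4 arrays, whereas 13 of 19 markers of other cell types were not, including PTPRC, PECAM1 and COL1A1. The siControl replicates lay further from each other than the siLSD1 replicates did. Over the 12870 rows tested, the SD of the log2 difference was 0.50 between the siControl replicates and 0.18 between the siLSD1 replicates. For this reason genes are also given against siControl replicates 1 and 2, in that order where only a pair of values is printed.

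Positive and negative differences were nearly equal in number in the set. Of 27 member rows that passed the filter on detection, 14 had higher and 13 lower estimates in siLSD1, with a median log2 difference of 0.04 against 0.01 over all rows tested. Set against siControl replicate 1 the median was 0.01, and set against replicate 2 it was -0.15. Limma called 0 of the 27 at an adjusted p of 0.05, as it called 0% of all rows in either direction, and 1515 of the 12870 rows had an unadjusted p under 0.05. Among the members that unadjusted count was 0 higher and 5 lower (HADH, ACAA1, ACADS, CPT1A and DECR1), where 5.92% and 5.85% of all rows had it, and 5 of 27 is 18.5%. The 4 siLSD1 arrays lay above the 4 siControl arrays for 2 members, ACSL3 and ACAA2 (7.41%, against 12.9% of all rows), and below them for 7, HADH, ACAA1, CPT1A, ACADS, DECR1, ESRRA and HADHA (25.9%, against 12.2%). A difference of over 2-fold was measured for HADH alone among the tested members, and 0.785% of all rows were lower by that much. The remaining 7 rows, ACSL4, ACSL5, ACADL, ACADSB, BDH1, PPARA and PPARGC1A, failed this filter, with a detection p of at least 0.01 on more than 4 of the 8 arrays. All but ACADL were nevertheless brighter than the ERCC control rows on at least 4 arrays, and they were also fitted under a filter on signal, which kept 16049 rows and 33 member rows.

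**Figure D1:**
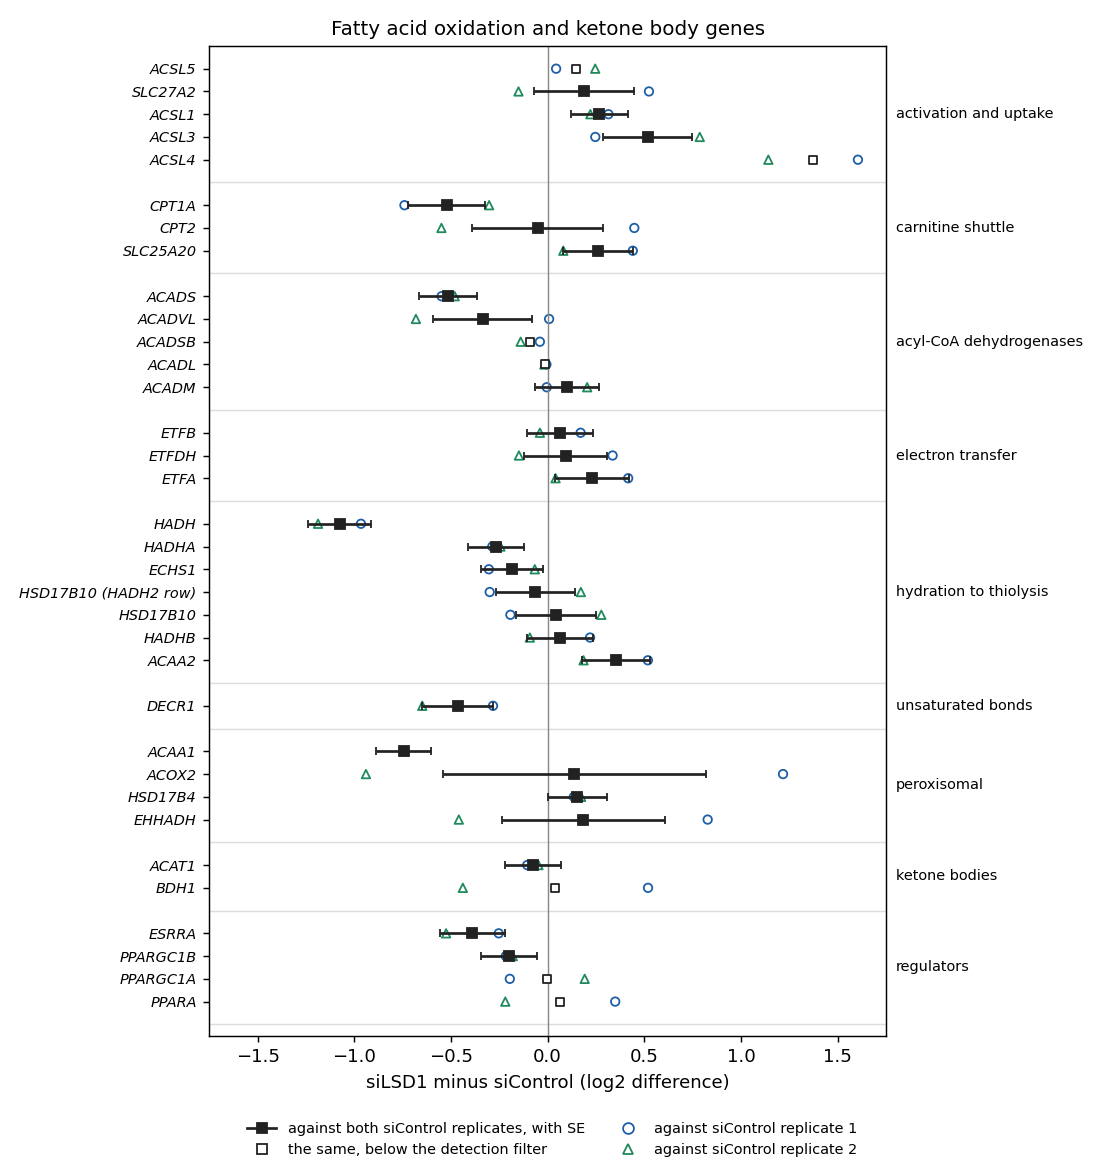
Log2 difference, siLSD1 minus siControl, for the 34 member rows grouped by role. Squares with bars give the estimate and its standard error, open squares mark the 7 rows below the detection filter (no error drawn), and circles and triangles give the difference against siControl replicates 1 and 2. HADH at -1.08 and ACSL4 at 1.37 mark the ends, and the circle and triangle of ACOX2, EHHADH and CPT2 fall on opposite sides of 0.

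The 5 genes of fatty acid activation and uptake all had positive estimates in siLSD1, and none passed the test. Under the signal filter, which kept all 5, 8202 of the 16049 rows had positive estimates. ACSL3, an acyl-CoA synthetase associated with lipid droplets and the endoplasmic reticulum, gave signals of 2657 and 2703 on the arrays of siControl replicate 1, 1866 and 1611 on those of replicate 2, 3505 and 3196 for siLSD1 replicate 1 and 2470 and 2737 for replicate 2. The siLSD1 arrays all lay above the siControl arrays once normalized, by a log2 difference of 0.52 ± 0.23 (adjusted p = 0.467), but the distance was 0.25 from siControl replicate 1 and 0.79 from replicate 2. ACSL4, which prefers polyunsaturated fatty acids such as arachidonic acid, gave 659, 582, 837 and 843 on the siControl arrays and 2040, 1758, 1638 and 1615 on the siLSD1 arrays. The groups did not overlap and the lowest siLSD1 signal was far above the highest siControl signal. Normalized log2 levels averaged 9.41 (SD 0.33, n = 2) for siControl and 10.78 (SD 0.05, n = 2) for siLSD1, a difference of 1.37 ± 0.20 under the signal filter (adjusted p = 0.199), with 1.61 and 1.14 against the siControl replicates. Under that filter 3 member rows, ACSL4 among them, had siLSD1 arrays that were all higher (9.09%, against 12% of all rows). ACSL4 was the only member over 2-fold higher, as were 0.754% of all rows, and limma called 0% of rows as higher. The detection p of ACSL4 lay between 0.101 and 0.433 on the 8 arrays, so the deposited p-values do not call it detected in either group. ACSL1, the main synthetase of liver, stood at 0.27 ± 0.15, ACSL5 at 0.15 ± 0.15 under the signal filter, and the very-long-chain transporter and synthetase SLC27A2 at 0.19 ± 0.26, with 0.52 against siControl replicate 1 and -0.15 against replicate 2.

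**Figure D2:**
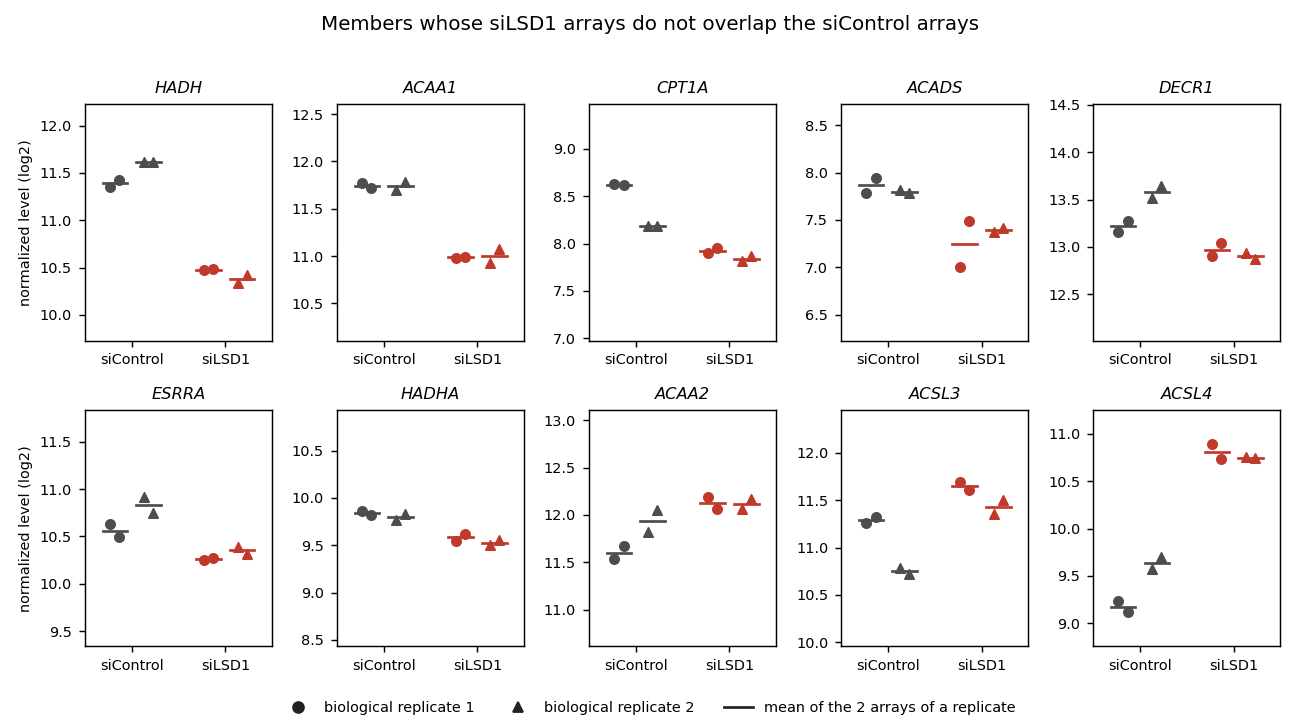
Normalized log2 level on each array for the 10 members whose 4 siLSD1 arrays lie all above or all below the 4 siControl arrays. Each panel spans the same range of log2 units around its own centre, circles and triangles mark biological replicates 1 and 2, and short lines their means. HADH and ACAA1 show both siControl replicates clear of the siLSD1 arrays, ACAA2 leaves a narrow gap, and the siControl replicates of CPT1A and ACSL3 differ visibly.

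The carnitine shuttle was split. CPT1A, the outer-membrane transferase that admits long-chain acyl groups and is inhibited by malonyl-CoA, gave signals of 436 and 416 for siControl replicate 1, 349 and 330 for replicate 2, 296 and 285 for siLSD1 replicate 1 and 261 and 268 for replicate 2. All siLSD1 arrays were below all siControl arrays, with the siControl replicates themselves apart. The log2 difference was -0.52 ± 0.20 (adjusted p = 0.412). It was larger from siControl replicate 1, at -0.74, than from replicate 2, at -0.30. The carnitine-acylcarnitine translocase SLC25A20 stood at 0.26 ± 0.18, made of 0.44 and 0.08 against the siControl replicates, and the inner transferase CPT2 at -0.05 ± 0.34, a mean of 0.45 against siControl replicate 1 and -0.55 against replicate 2.

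Among the acyl-CoA dehydrogenases, which carry out the opening step of each round for chains of different length, ACADS for short chains was lower on every siLSD1 array. Its signals were 257, 274, 278 and 262 on the siControl arrays and 175, 217, 205 and 208 on the siLSD1 arrays, of which 3 had a detection p under 0.01; the brightest ERCC row was at 164 to 228 per array. Normalized log2 levels averaged 7.83 (SD 0.05, n = 2) against 7.32 (SD 0.10, n = 2), a difference of -0.51 ± 0.15 (adjusted p = 0.340) that was -0.55 and -0.48 against the siControl replicates. ACADM, for medium chains, stood at 0.10 ± 0.17. ACADVL, for very long chains, stood at -0.34 ± 0.26, which was 0.01 against siControl replicate 1, with signals of 7748 and 7027, and -0.68 against replicate 2, with signals of 12234 and 10598. ACADSB, which acts on short branched chains from isoleucine, stood at -0.09 ± 0.14 under the signal filter. ACADL was not above the control rows, with signals of 114 to 162 on the 8 arrays. The electron transfer flavoprotein subunits and its oxidoreductase, which pass the electrons of these dehydrogenases to ubiquinone, had overlapping groups. ETFA stood at 0.23 ± 0.19, made of 0.42 and 0.04 against the siControl replicates, and ETFDH at 0.09 ± 0.21, made of 0.34 and -0.15. ETFB had a detection p under 0.01 on 0 siControl arrays and on 4 siLSD1 arrays, although its signals ran from 5809 to 6932 and from 6119 to 6868. Its arrays overlapped, and the log2 difference was 0.07 ± 0.17 (adjusted p = 0.925), made of 0.17 and -0.04.

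The largest tested difference of the set was in HADH, the mitochondrial hydroxyacyl-CoA dehydrogenase for short and medium chains. Its signals were 2851 and 2900 for siControl replicate 1, 3261 and 2972 for replicate 2, 1565 and 1497 for siLSD1 replicate 1 and 1248 and 1309 for replicate 2. The groups were far apart and the replicates of each were close. On the normalized log2 scale siControl averaged 11.50 (SD 0.16, n = 2) and siLSD1 10.43 (SD 0.07, n = 2), a difference of -1.08 ± 0.16 or 2.11-fold lower, with -0.97 and -1.19 against the siControl replicates (adjusted p = 0.223). HADHA, the subunit of the trifunctional protein that hydrates and dehydrogenates long chains, gave 1004, 937, 952 and 916 against 849, 847, 720 and 740. Its siLSD1 arrays were all lower by a small margin, with a difference of -0.26 ± 0.14 (adjusted p = 0.550). HADHB, the thiolase subunit, is encoded on the strand opposite to HADHA, the strand on which the shared stretch is printed above. HADHB had overlapping arrays and stood at 0.06 ± 0.17, made of 0.22 and -0.09. The difference between the subunits was not tested. ACAA2, the mitochondrial thiolase, gave 3207, 3429, 3747 and 4014 on the siControl arrays and 4869, 4303, 4041 and 4340 on the siLSD1 arrays. These groups are separated by a gap narrower than the spread within siControl, and the difference was 0.35 ± 0.18 (adjusted p = 0.515), made of 0.52 and 0.19 against the siControl replicates. The enoyl-CoA hydratase ECHS1 stood at -0.18 ± 0.16, made of -0.30 and -0.07. HSD17B10, a dehydrogenase of branched and steroid substrates, stood at 0.04 ± 0.21 in its current row and -0.06 ± 0.20 in the HADH2 row, and both rows had opposite signs against the siControl replicates. DECR1, the reductase needed for polyunsaturated chains, gave 9591 and 10069 on the first pair of siControl arrays, 12432 and 12256 on the second, and 7939, 8332, 7462 and 7150 in siLSD1. All siLSD1 arrays were lower, with a log2 difference of -0.47 ± 0.18 (adjusted p = 0.424), with -0.28 and -0.65 against the siControl replicates.

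Peroxisomal genes held both the member with the closest siControl replicates, ACAA1, and the member with the most distant, ACOX2. ACAA1, the peroxisomal thiolase, gave 3769 and 3522 for siControl replicate 1, 3416 and 3328 for replicate 2, 2179 and 2100 for siLSD1 replicate 1 and 1831 and 2013 for replicate 2. The siLSD1 arrays were all lower and neither pair of replicates stood apart. Replicate 2 minus replicate 1 was -0.0032 log2 units in siControl and 0.014 in siLSD1, while the groups differed by -0.74 ± 0.14 (adjusted p = 0.243), or -0.75 and -0.74 from the individual controls. HSD17B4, the bifunctional enzyme of branched and very long chains, stood at 0.15 ± 0.15. ACOX2, an oxidase of branched chains and bile acid intermediates, and EHHADH, the other bifunctional enzyme, depended on the control sample. ACOX2 gave 737 and 651 for siControl replicate 1, 3037 and 2658 for the second, and 1426 to 1650 on the siLSD1 arrays, which lay between the controls. Its difference was 0.14 ± 0.68, made of 1.22 and -0.94. EHHADH gave 290 and 249 for siControl replicate 1, 619 and 622 for replicate 2 and 416 to 498 in siLSD1, with a difference of 0.18 ± 0.42, made of 0.83 and -0.46.

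For ketone bodies, ACAT1, the mitochondrial acetoacetyl-CoA thiolase, had arrays that overlapped between the groups. Its signals were 15838, 16492, 16264 and 15298 on the siControl arrays and 16893, 13740, 14065 and 14447 on the siLSD1 arrays. The log2 difference was -0.08 ± 0.14 (limma adjusted p = 0.886), with -0.11 and -0.05 against the siControl replicates. Both siLSD1 sample means lay below both siControl sample means, as they did for 21% of all rows. The signals of BDH1, which interconverts acetoacetate and hydroxybutyrate, were 144, 144, 283 and 230 on the siControl arrays and 188, 192, 199 and 198 on the siLSD1 arrays. Again the siLSD1 arrays lay between the siControl replicates, with a difference of 0.04 ± 0.33 under the signal filter (adjusted p = 0.982), made of 0.52 and -0.44, and only 3 of the 8 arrays had a detection p under 0.01.

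The regulators were dim on these arrays except for ESRRA. ESRRA, encoding ERRα, gave 1747 and 1518 for siControl replicate 1, 2052 and 1643 for replicate 2, 1353 and 1297 for siLSD1 replicate 1 and 1292 and 1218 for replicate 2. All siLSD1 arrays were lower, with a log2 difference of -0.39 ± 0.17 (adjusted p = 0.456) that was -0.25 and -0.52 against the siControl replicates. PPARGC1B, encoding the coactivator PGC-1β, gave 225, 195, 223 and 205 against 180, 201, 204 and 183, with overlapping arrays and a difference of -0.20 ± 0.14 (adjusted p = 0.666). PPARA, encoding PPARα, gave 168, 167, 239 and 237 against 218, 204, 197 and 213. It stood at 0.07 ± 0.22 under the signal filter (limma adjusted p = 0.951), made of 0.35 and -0.22 against the siControl replicates. PPARGC1A, encoding PGC-1α, gave 213, 201, 172 and 174 against 197, 197, 178 and 197. It stood at 0.00 ± 0.18 under the same filter (limma adjusted p = 0.998), made of -0.20 and 0.19. For both genes the siLSD1 arrays fell within the range of the siControl arrays, and these signals lie close to the brightest ERCC control row.

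The siControl replicates differed from each other in many members. For 15 of the 27 tested member rows (55.6%) the siControl replicates were further apart than the group means, against 64.2% of all rows. Opposite signs against the 2 controls were found in 11 member rows (40.7%, against 41.6%). HSD17B10 counts with both of its rows, here and in other shares of the tested members. ACOX2 and EHHADH were over 2-fold higher in siControl replicate 2 than in replicate 1, by 2.16 and 1.29 on the log2 scale. CPT2 was higher by 1.00, with signals of 684 and 626 against 1236 and 1270, and BDH1 by 0.96. Of the hepatocyte markers, 6 of 9 tested were higher in siControl replicate 2 (48.5% of all rows were), with a median of 0.47, while AFP, FGB and TF were lower, at -0.83, -1.17 and -0.10. The summed normalized signal of all 10 markers was 186913 and 222098 in siControl replicates 1 and 2, and 229233 and 230384 in siLSD1. Of 20 DNA replication genes, 16 were tested, and their median for the same contrast was -0.57. In bulk RNA a change in the share of cells of a kind and in RNA per cell cannot be told apart. The part of either group of genes in the differences reported here was not tested.

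**Figure D3:**
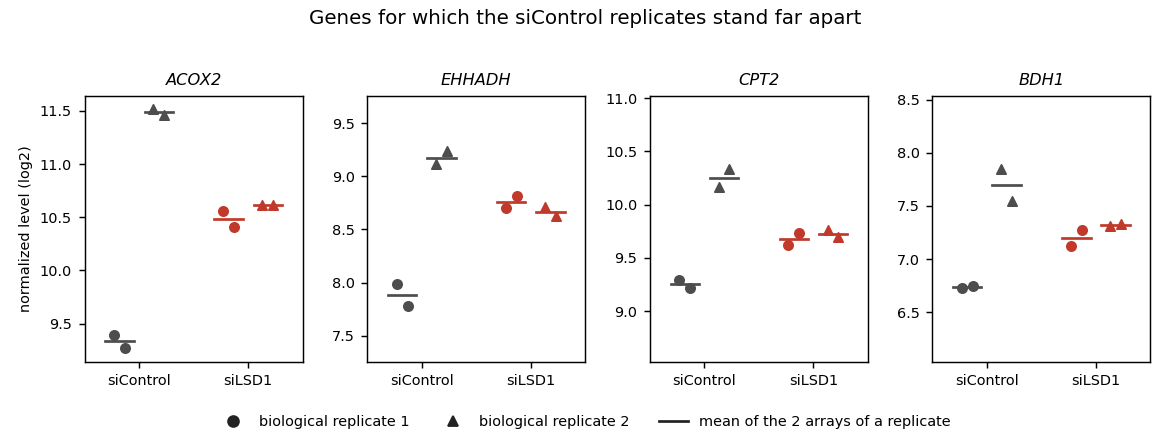
Normalized log2 level on each array for ACOX2, EHHADH, CPT2 and BDH1, for which the siControl replicates differ by about 1 log2 unit or more. Each panel spans the same range of log2 units, circles and triangles mark biological replicates 1 and 2, and short lines their means. In every panel the siLSD1 arrays lie between siControl replicate 1 (lower) and replicate 2 (higher).

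Modelling the technical replicates, with all 8 arrays in the fit and the biological sample as a random block, called 375 of the 12870 rows (1.45% as higher and 1.47% as lower). It assumed 1 correlation between the arrays of a sample for all rows, 0.76, and took its degrees of freedom from 8 arrays. Only 4 biological samples stand behind them, which limits every call of this fit, also those for genes outside the set. Among the members 2 were called, both lower: HADH (adjusted p = 0.00403) and ACAA1 (adjusted p = 0.0237). Under the signal filter this fit called 1.57% of rows as higher, ACSL4 among them (adjusted p = 0.00282). Leaving out siControl replicate 1 gave 10 member calls (37%, against 16.9% of all rows), and leaving out replicate 2 gave 11 (40.7%, against 38.9%). HADH, ACAA1 and ACADS were called as lower both times (11.1% of the tested members, against 4.17% of all rows), while CPT2, ACOX2 and EHHADH were called with opposite signs (11.1%, against 1.78%). These fits take their spread from the siLSD1 pair alone and assume it for the single siControl sample.

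The pathway genes outside the set also had positive and negative estimates in equal number, with larger single differences. Of 79 listed, 54 passed the detection filter, 27 with higher and 27 with lower estimates and a median of 0.01. Limma called 0 of them, and the siLSD1 arrays lay all above the siControl arrays for 11 and all below for 9, against 12.9% and 12.2% of all rows. ACACB, the acetyl-CoA carboxylase at the mitochondrial surface whose malonyl-CoA inhibits CPT1A, gave signals of 2169, 2172, 2070 and 1810 against 866, 765, 908 and 807. It was lower on every siLSD1 array, with a log2 difference of -1.29 ± 0.16 (adjusted p = 0.223) that was -1.33 and -1.26 against the siControl replicates. ACACB was also called with the technical replicates modelled (adjusted p = 0.00323). SLC27A3 and CYP4A11 were the other genes called in that fit, both as lower (adjusted p = 0.0461 and 0.036). It thus called 3 of the 54 as lower and 0 as higher, against 1.47% and 1.45% of all rows. Under the signal filter it called 3 of 63 as lower and 1 as higher, against 1.55% and 1.57% of all rows. MLYCD, which degrades malonyl-CoA, had overlapping arrays and stood at 0.46 ± 0.27, made of 0.84 and 0.08 against the siControl replicates.

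Other mitochondrial genes went both ways. ACAD10 and ACSF2, a dehydrogenase and an acyl-CoA synthetase, stood at 0.84 ± 0.27 and 0.71 ± 0.18, and ACAD11, a dehydrogenase of long chains, at -0.65 ± 0.25. Against the siControl replicates these were 1.21 and 0.48 for ACAD10, 0.88 and 0.54 for ACSF2, and -0.33 and -0.96 for ACAD11. Of the 12 tested in that list 4 had all siLSD1 arrays higher (12.9% of all rows) and 5 all lower (12.2%). ABCD3, which imports branched and dicarboxylic acyl-CoA into peroxisomes, stood at 0.64 ± 0.17, with 0.59 and 0.68 against the siControl replicates. Of 11 tested genes of that peroxisomal list 3 had higher and 8 lower estimates, with a median of -0.09. Among the 11, all siLSD1 arrays were higher for 1, ABCD3 (12.9% of all rows), and lower for 1, PHYH (12.2%). PHYH, the hydroxylase that starts the oxidation of phytanic acid, stood at -0.32 ± 0.15. SLC27A3, of the fatty acid transport protein family, stood at -1.08 ± 0.30, with -0.69 and -1.48 against the siControl replicates. Of the 6 tested genes of ketone bodies outside the set, 0 had arrays that did not overlap. Among all rows 12.9% lay all higher and 12.2% all lower, and 6 genes are too few to depart from those shares.

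Known targets of PPARα in liver or other cells, listed outside the set, had mostly positive estimates, 6 of 7 tested, with a median of 0.37. Over all rows tested, 6614 of 12870 had positive estimates. The members are not in this list, although PPARα is also a known regulator of such genes. Of the tested member rows 14 had higher and 13 lower estimates. For the listed targets, the siLSD1 arrays lay all above the siControl arrays for 5 and all below for 1, where 12.9% and 12.2% of all rows did so. VNN1, a pantetheinase, stood at 1.01 ± 0.39 and PLIN2, the coat protein of lipid droplets, at 0.75 ± 0.36. Both rested unequally on the controls, with 1.58 and 0.43 for VNN1 and 1.28 and 0.22 for PLIN2. PDK4, the kinase that inhibits pyruvate dehydrogenase, stood at 0.42 ± 0.15, and ANGPTL4, an inhibitor of lipoprotein lipase, at 0.36 ± 0.15. The PDK4 values were 0.48 and 0.36 against the siControl replicates and those of ANGPTL4 were 0.39 and 0.34. CREB3L3, a liver transcription factor that is also listed among the regulators, stood at 0.37 ± 0.20, made of 0.16 and 0.58. The exception in direction was CYP4A11, a fatty acid hydroxylase that shares much of its sequence with CYP4A22, so that probes may not tell them apart. It gave 664 and 679 for siControl replicate 1, 271 and 244 for replicate 2, and 148, 158, 160 and 168 on the siLSD1 arrays, which were not detected. The measured log2 difference of CYP4A11 was -1.63 (limma adjusted p = 0.354), made of -2.42 and -0.84 against the siControl replicates. With each siLSD1 array held at or above its dimmest detected row, the siControl mean was 2.83-fold above the siLSD1 mean. That fold is for the mean of unlike siControl replicates, has no error, and is not a minimum against replicate 2. Limma called 0 of these 7 genes, and their smallest adjusted p was 0.354.

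**Figure D4:**
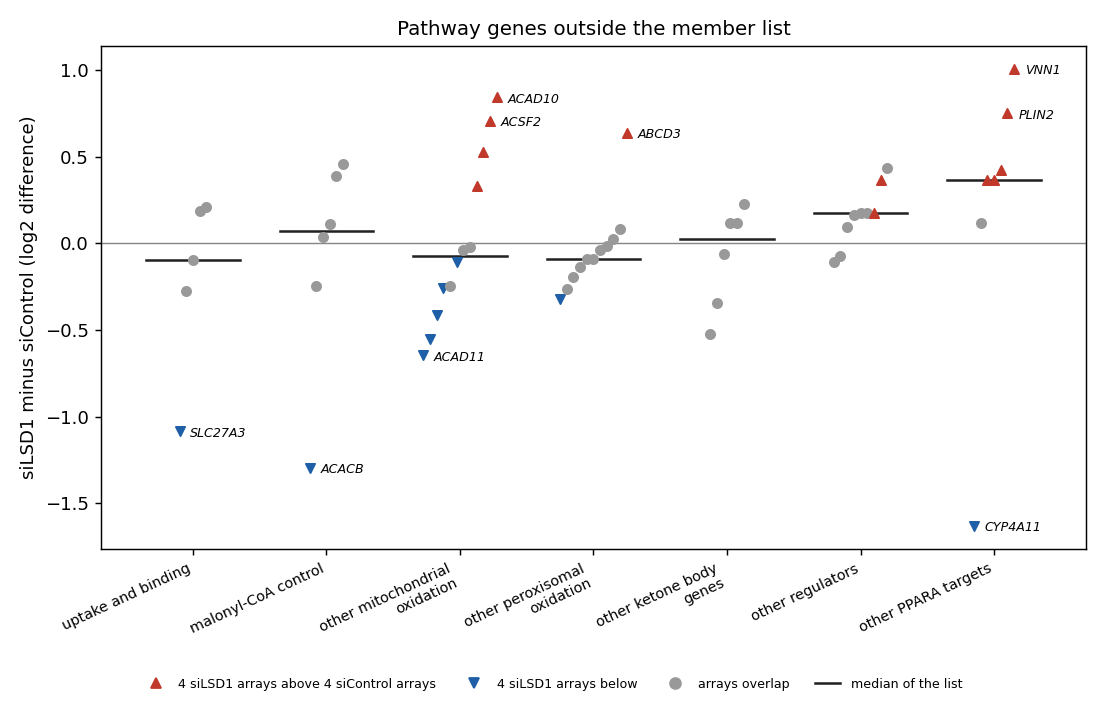
Log2 difference, siLSD1 minus siControl, of the tested pathway genes outside the set, by list; a gene can stand in more than 1 list. Triangles mark genes whose 4 siLSD1 arrays lie all above (up) or all below (down) the 4 siControl arrays, grey circles genes whose arrays overlap, and horizontal lines the medians. ACACB, SLC27A3 and CYP4A11 are the lowest points, and the list of PPARα targets, which leaves out the members, has the highest median, 0.37.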

How the data were processed

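RNA of Huh-1 cells was measured on 8 bead arrays (2 groups, 2 biological replicates of 2 arrays each). The authors deposited non-normalized intensity on a linear scale, with a detection p-value for each row deposited beside it, and a table of normalized intensity. BeadStudio 3.1.1.0 was used, per the submitters' processing notes. Not given in the sources used here are the array type, the summary of probes, the normalization of the second table and the calculation of the p-values. The deposited p-values do not follow the signal, since 12255 rows exceeded all ERCC controls on all 8 arrays and 761 of these had p of 0.01 or more on all 8.

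Signals were background-corrected (normexp, offset 50), quantile-normalized and log2-transformed, and technical arrays were averaged. The 12870 rows detected (p under 0.01) on 4 or more arrays were fitted with limma 3.58.1 (R 4.3.3). Its tests were two-sided and adjusted over these rows by Benjamini-Hochberg, with a threshold of 0.05. An exact two-sided permutation test of 2 against 2 cannot go below 0.333, and the 4 biological samples limit the precision. Whether the spread between replicates is technical is not stated. Symbols were updated through the RefSeq gene table. A gene that fell below background in a group has a fold between group means computed with the dimmest detected row of each array as a floor. The procedure was tested on simulated data, but the outcome is not given here. How it performs at the spread seen between the siControl replicates is not reported either.

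The members and lists were chosen with earlier results of these data known. Named in full were KDM1A, the members whose arrays did not overlap, and HADH, CPT1A, PPARA, PPARGC1A, PPARGC1B, ESRRA, ACAT1 and BDH1. From the other lists, ACACB, ANGPTL4, PDK4 and the 8 with the largest differences whose samples did not overlap were named; MLYCD, CREB3L3 and PHYH were added after their values were seen, and some genes of the rule are not reported here. Same-numbered samples correlated at r = 0.12 over rows in their deviations from the group means (2 pairs), and no label ties a number to a shared day. Alternatives covered background correction, normalization, filters, technical replicates, a replicate block and leaving out samples or arrays.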

Additional observations from a re-analysis of the deposited data

Results flagged for a closer look

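Among 68 groups of 4 arrays (34 member rows in 2 groups), 4 had an array far from the other 3 by Dixon's criterion, which chance meets in about 1 of 20 groups; the arrays of a group include technical replicates. The log2 level of ACSL4 was 10.89 on siLSD1 array 1, against 10.73 to 10.75 on the others. SLC27A2 was at 8.92 on siLSD1 array 3, against 9.24 to 9.29. ACADSB was at 7.49 on siControl array 3, against 7.28 to 7.29. HSD17B10 was at 10.69 on siLSD1 array 3, against 10.86 to 10.87.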

How the results depend on the processing

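Limma called 0 rows and 0 members under each alternative to the background correction, the normalization and the filter, and with the replicate block, which left the member median at 0.04. With the technical replicates modelled 375 rows and 2 members were called. Leaving out a sample or an array gave 0 to 5006 rows and 0 to 11 members, the calls arising without a siControl replicate. The member median was -0.012 with neqc, -0.026 with median scaling, and -0.15 to 0.046 with a sample or array left out. For the pathway genes outside the set it was -0.041 with median scaling, 0.028 with the signal filter, 0.028 with detection on all arrays, and -0.029 to 0.022 with a sample or array left out. Values that changed sign outside the leave-out fits were -0.026 for HSD17B10 with median scaling and -0.21 for ACOX2 with neqc. With a sample or array left out, the log2 difference ranged from -0.15 to 0.52 for SLC27A2, -0.0045 to 0.20 for ACADM, -0.68 to 0.0078 for ACADVL, -0.55 to 0.45 for CPT2 and -0.047 to 0.18 for ETFB. It ranged from -0.15 to 0.34 for ETFDH, -0.092 to 0.22 for HADHB, -0.30 to 0.17 for the HADH2 row of HSD17B10, -0.19 to 0.28 for its current row, -0.94 to 1.22 for ACOX2 and -0.46 to 0.83 for EHHADH. Their cause was not tested beyond the siControl replicates given above. HADH lay between -1.13 and -1.05 and ACAA1 between -0.92 and -0.73 in the other alternatives. CPT1A and ACADS were closest to 0 with neqc, at -0.059 and -0.036; that setting infers a background from p-values that are no rank of signal. The 4 biological samples limit every statement, and signals near the ERCC rows limit those on ACADS, PPARA, PPARGC1A, PPARGC1B, ACADSB and BDH1.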

Other observations

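CD36, a receptor for fatty acid uptake, was singled out after its values were seen. Its signals were 816 and 693 for siControl replicate 1, 1522 and 1328 for replicate 2, 2375 and 2123 for siLSD1 replicate 1 and 1903 and 1833 for replicate 2. All siLSD1 arrays were higher, with a log2 difference of 1.05 ± 0.34 under the signal filter (limma adjusted p = 0.365), made of 1.55 and 0.56 against the siControl replicates. The deposited detection p of CD36 was between 0.0689 and 0.167 on the 8 arrays. ACACA, the cytosolic acetyl-CoA carboxylase, was also chosen after its values were seen. It was likewise left out by the detection p and had higher signals on every siLSD1 array, with a log2 difference of 0.49 ± 0.15 under the signal filter (limma adjusted p = 0.345), while ACACB stood at -1.29. OXCT1, which starts the use of ketone bodies in tissues other than liver, had signals of 118 to 161 and was not above the ERCC control rows.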
